A study of Mus musculus with 6 samples.

Results

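The mitosis genes described here are 40 genes whose products enter, run and end cell division, listed by name for this work rather than by any measured value. Each was read from 1 probe set, the brightest over the 6 arrays among those assigned to that gene alone. Of the 40, 38 were measured, out of 22180 genes on the array with a probe set of their own. Ccnb1, which encodes cyclin B1, had no assigned probe set, and Hjurp, the chaperone that loads the centromeric histone, shared its probe set with other genes, so neither is given a value.

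RNA came from neurospheres, the floating balls of cells that neural stem and progenitor cells form in culture, made from the subependymal region of 6 CD1 mice aged 2 months. In the MG group, 3 mice had mothers injected with 0.5 mg/kg MG, read from the title of the series as methylglyoxal, a reactive by-product of glycolysis. In the PBS group, 3 mice had mothers injected with PBS. Both schedules ran at 2 intraperitoneal injections a day from gestational day 12 until birth, and all cultures grew for 7 days with 20 ng/ml EGF and 10 ng/ml FGF2, both mitogens. CD1 is an outbred stock, the labels give no mother or litter for a mouse, and p-values here measure only the spread between these samples. The titles call the cultures primary, the descriptions secondary. The title of the series names neural stem cell pools in offspring, and the comparison asks whether the division genes of the cultured cells differed after the prenatal injections.

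Division genes are transcribed in a wave. A repressor complex called DREAM holds them down in resting cells by binding short promoter elements, and in cycling cells the same core joins the factor encoded by Mybl2, followed by the one encoded by Foxm1, to switch them on in G2. Their messages therefore serve as a measure of how much of a culture is dividing. In the subventricular zone they mark activated stem cells and transit amplifying progenitors, while resting stem cells carry little of them. In a bulk culture, fewer dividing cells and less RNA per dividing cell cannot be told apart.

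Promoters are shown for the 3 members whose level differed most between replicate 3 and the other cultures of a group and the 2 whose level differed least, among members with a RefSeq promoter entry. Each window runs from 250 bases before to 50 after the annotated start in GRCm38.p6, 5′ to 3′ on the gene's strand, and belongs to Birc5 at chr11:117848987-117849286 (plus strand), Cenpa at chr5:30666636-30666935 (plus), Kif20b at chr19:34922108-34922407 (plus), Bub1b at chr2:118597961-118598260 (plus) and Ckap2 at chr8:22185770-22186069 (minus). Capitals mark the CCAAT box and the cell cycle genes homology region, elements through which the DREAM core and the factor NF-Y are known to act on division genes.
Birc5: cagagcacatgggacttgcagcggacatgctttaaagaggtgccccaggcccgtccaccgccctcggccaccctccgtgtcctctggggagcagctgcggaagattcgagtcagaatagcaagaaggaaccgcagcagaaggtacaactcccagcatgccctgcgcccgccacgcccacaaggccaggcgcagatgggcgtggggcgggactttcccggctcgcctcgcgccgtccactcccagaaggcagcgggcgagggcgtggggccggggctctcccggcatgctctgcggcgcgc
Cenpa: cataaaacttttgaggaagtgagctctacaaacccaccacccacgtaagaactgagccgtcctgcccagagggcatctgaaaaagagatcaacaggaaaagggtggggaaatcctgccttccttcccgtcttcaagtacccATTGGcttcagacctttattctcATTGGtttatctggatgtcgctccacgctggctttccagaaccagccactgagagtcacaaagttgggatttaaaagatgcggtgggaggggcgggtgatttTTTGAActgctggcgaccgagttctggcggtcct
Kif20b: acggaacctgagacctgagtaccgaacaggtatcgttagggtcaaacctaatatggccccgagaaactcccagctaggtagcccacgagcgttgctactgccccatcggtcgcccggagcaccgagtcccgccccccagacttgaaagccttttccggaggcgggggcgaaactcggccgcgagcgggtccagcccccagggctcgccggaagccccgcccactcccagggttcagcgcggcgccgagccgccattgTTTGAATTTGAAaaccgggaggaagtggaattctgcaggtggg
Bub1b: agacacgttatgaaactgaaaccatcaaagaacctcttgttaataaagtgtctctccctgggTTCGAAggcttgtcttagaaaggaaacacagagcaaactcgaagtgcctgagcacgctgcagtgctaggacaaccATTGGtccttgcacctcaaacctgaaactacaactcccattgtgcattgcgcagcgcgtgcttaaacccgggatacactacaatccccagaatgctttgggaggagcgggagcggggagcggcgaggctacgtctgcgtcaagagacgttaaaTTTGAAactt
Ckap2: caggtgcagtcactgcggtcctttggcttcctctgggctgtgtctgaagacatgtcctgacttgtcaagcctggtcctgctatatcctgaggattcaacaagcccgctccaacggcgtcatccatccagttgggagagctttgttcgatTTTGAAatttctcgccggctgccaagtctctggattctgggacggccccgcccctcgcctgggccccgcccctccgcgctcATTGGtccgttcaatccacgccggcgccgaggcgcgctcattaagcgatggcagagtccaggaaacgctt

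Homology region letters stood in most members' promoters. The homology region was searched on both strands as TTTGAA or TTCGAA, and the CCAAT box as CCAAT, which reads ATTGG on the opposite strand. Of the 32 measured members with a promoter entry, 25 (78.1%) held a homology region match, against 19.4% of 27025 genes with an entry, 18.2% of protein-coding genes and 13.0% of genes above the dim level defined below. In 22 of the 25, a match began within 50 bases of the start used for the window. Over all entries, that start was the start of the gene in the annotation in 72.5%. TTTGAA was found in 24 of the 25 members and TTCGAA in 3, of which Bub1, a checkpoint kinase gene, held TTCGAA alone. CCAAT was found in 24 members (75.0%), against 37.9% of all genes, and 18 members held at least 2. Both elements stood in 21 members (65.6%), against 7.7% of all genes. Matches of different elements overlapped in 1 member, Cdca8.

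Fewer replication genes held the homology region letters. Of 32 DNA replication and S phase genes with an entry, 6 (18.8%) held a homology region match and 20 (62.5%) a CCAAT box. The E2F element, searched as TTTCCCGC, TTTCGCGC, TTTGCCGC or TTTGGCGC on both strands, stood in 11 of those 32 (34.4%), in 1 of the 32 mitosis genes (Cdk1) and in 2.3% of all genes. Of 45 other mitosis genes with an entry, 31 (68.9%) held a homology region match. Birc5, Nuf2, Nusap1 and Tacc3 held neither the CCAAT box nor the homology region in this window, which says only that the letters are not there. These shares are a description and carry no test, since the genes were picked for their function.

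**Figure D1:**
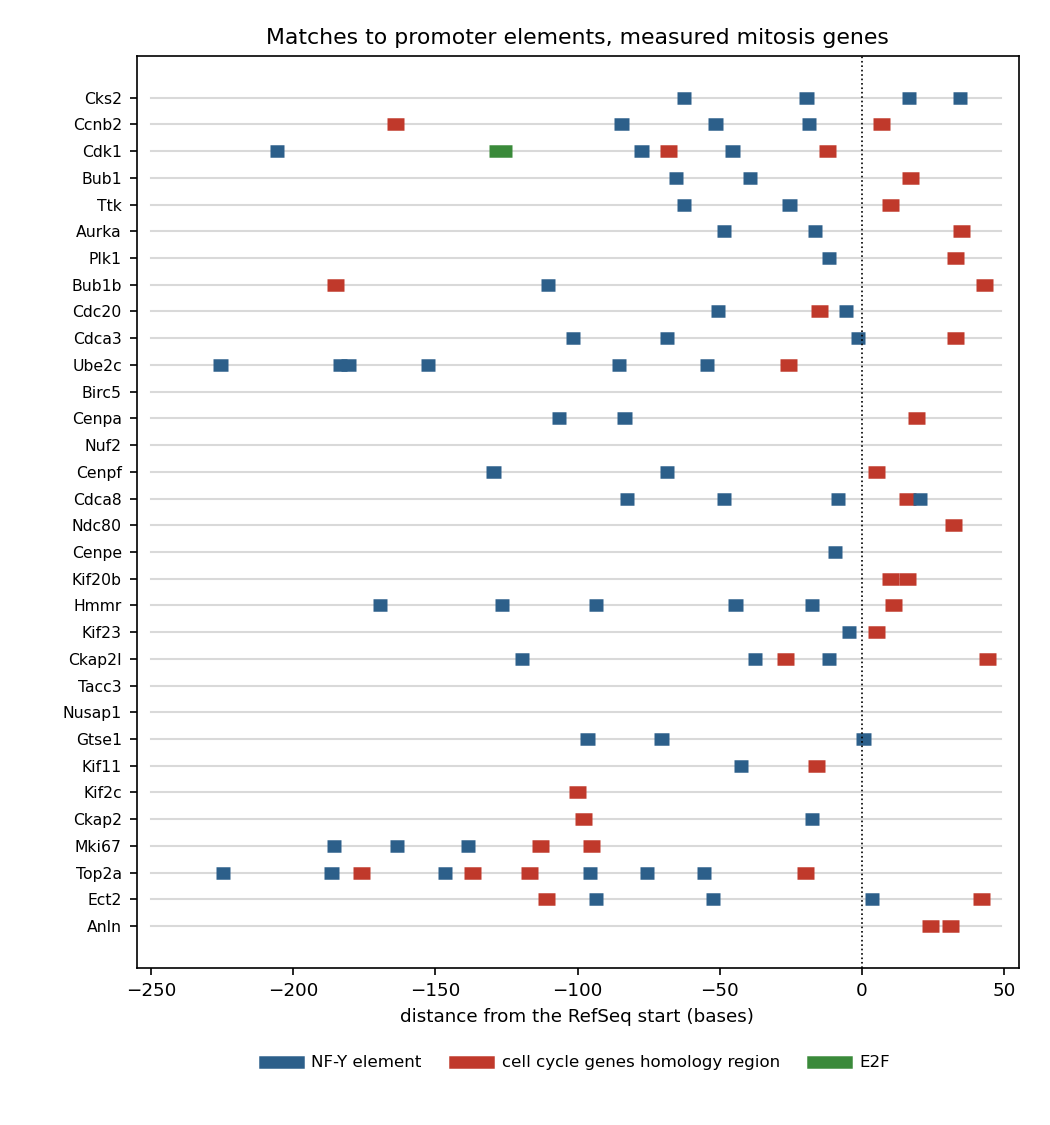
Matches to 3 promoter elements in the measured mitosis genes that have a RefSeq promoter entry, plotted by distance in bases from the annotated start (dotted line), 1 row per gene. Red blocks, the homology region, stand within 50 bases of the start in 22 of the 32 genes, blue blocks are the CCAAT box to which NF-Y binds, and the single green block is the E2F match of Cdk1.

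Levels are log2 values as deposited, where a difference of 1 is a doubling, and values of different genes are not compared because probe sets differ in brightness. The 38 members lay between 7.19 and 11.52, all above a dim level of 5.02, taken as the 95th percentile of the means of 1390 olfactory and vomeronasal receptor genes, which these cells are not known to use. All 9 stem and progenitor markers measured, Sox2 and Nes among them, were above that level in both groups, as were all 8 astrocyte, 7 oligodendrocyte lineage and 7 neuronal markers. Of 7 microglial markers 3 were above it, and Aif1, Csf1r, Tmem119 and Itgam were not. Over all probe sets the array medians lay between 5.25 and 5.42.

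Every one of the 38 members was highest on the 2 arrays numbered 3, one from an MG and one from a PBS mouse. Over all 22180 genes both arrays numbered 3 stood above the other 4 in 15.7%, and among 13716 genes above the dim level in 22.5%. The gap between the lower of these 2 arrays and the highest of the other 4 had a median of 0.27 over the members, and ran from 0.02 in Ckap2 to 0.73 in Birc5. At the other end, PBS replicate 1 was the lowest of the 6 arrays in 31 of 38 members, against 13.7% of all genes and 14.6% of genes above the dim level. That the arrays numbered 3 differ was known from earlier results of these data, so the counts describe the members and are not tested. The labels name no batch, scan time or litter for these arrays.

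**Figure D2:**
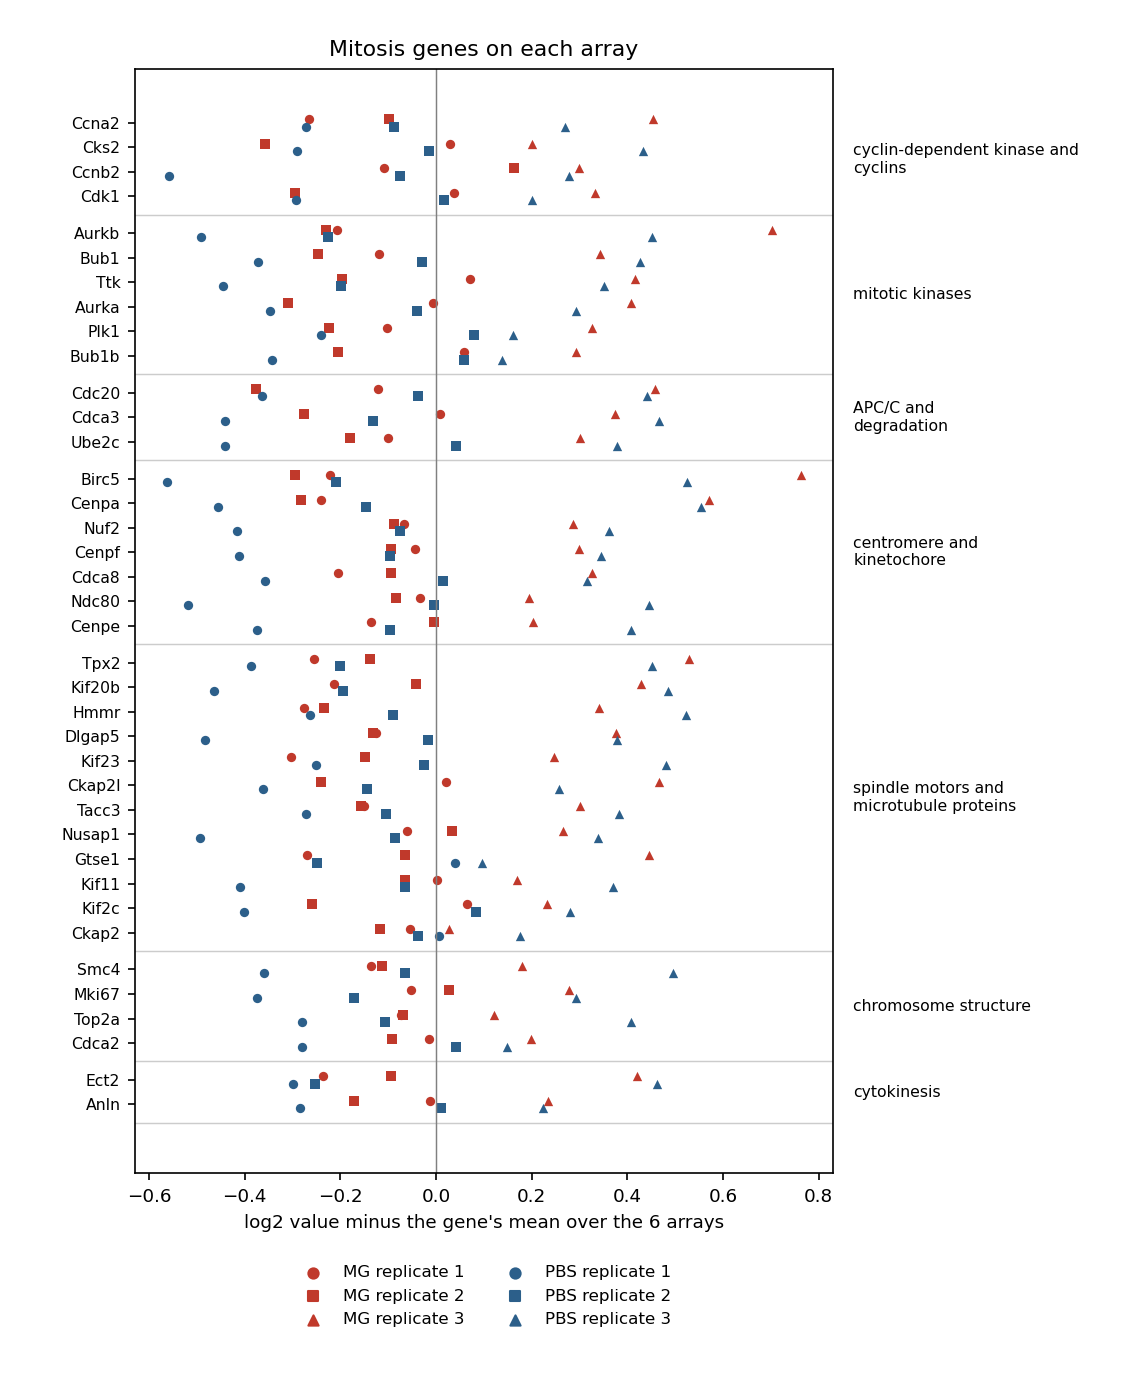
Log2 values of the 38 measured mitosis genes minus each gene's mean over the 6 arrays, with MG arrays in red and PBS arrays in blue, and circles, squares and triangles for replicates 1, 2 and 3. The triangles of both colours lie to the right of the other 4 arrays in every row, by 0.02 in Ckap2 and by 0.73 in Birc5.

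Birc5, Aurkb and Cenpa had the largest distances between replicate 3 and the other arrays. Birc5 encodes survivin, which docks the chromosomal passenger complex at the centromere. It had values of 7.54, 7.46 and 8.52 in MG replicates 1, 2 and 3, against 7.19, 7.55 and 8.28 in PBS replicates 1, 2 and 3. Aurkb, the kinase of the complex, stood at 9.25, 9.23 and 10.16 in MG, against 8.97, 9.24 and 9.91 in PBS. In both genes the arrays numbered 3 were high, the other 4 arrays lay well below them, and the groups overlapped. Replicate 3 exceeded the mean of replicates 1 and 2 by 1.02 in MG and 0.91 in PBS for Birc5, and by 0.92 in MG and 0.81 in PBS for Aurkb. Cdca8, which encodes borealin, a partner of survivin in the same complex, had smaller distances of 0.48 in MG and 0.49 in PBS.

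Cenpa encodes the histone H3 variant that marks the centromere. Its values were 8.78, 8.74 and 9.59 in MG, against 8.56, 8.87 and 9.58 in PBS, with replicate 3 apart from the rest in both groups by 0.83 and 0.86. The other 4 measured genes of the kinetochore, which ties chromosomes to microtubules, stood nearer together. For Cenpe, a kinesin, Cenpf, a large kinetochore protein, and Ndc80 and Nuf2, partners in the microtubule-binding Ndc80 complex, the distance of replicate 3 lay between 0.25 and 0.37 in MG and between 0.60 and 0.71 in PBS. Across the 7 genes of this role, Birc5 and Cdca8 included, its median was 0.37 in MG and 0.64 in PBS.

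Mitotic kinases split between Aurkb and the rest. Plk1, the polo-like kinase of entry, spindle and exit, had values of 10.33, 10.21 and 10.76 in MG, against 10.19, 10.51 and 10.59 in PBS. Bub1b, which encodes the checkpoint protein BubR1, had values of 8.47, 8.21 and 8.70 in MG, against 8.07, 8.47 and 8.55 in PBS. In both of these, PBS replicate 2 came within 0.08 of PBS replicate 3, so the arrays numbered 3 led only narrowly. Ttk, the checkpoint kinase also called Mps1, stood at 9.23, 8.96 and 9.57 in MG, against 8.71, 8.96 and 9.51 in PBS, with distances of 0.48 and 0.67. Aurka, the spindle pole kinase, and Bub1 had distances between 0.49 and 0.63. The kinases' median was 0.51 in MG and 0.56 in PBS.

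Among cyclins and their partners, Ccna2 and Cdk1 had the larger distance in MG, and Ccnb2 and Cks2 in PBS. Ccna2, which encodes cyclin A2, had values of 10.80, 10.97 and 11.52 in MG, against 10.79, 10.98 and 11.33 in PBS. Ccnb2, which encodes cyclin B2, a partner of Cdk1, had values of 9.00, 9.28 and 9.41 in MG, against 8.55, 9.04 and 9.39 in PBS. PBS replicate 1 was the lowest array for Ccnb2, and MG replicate 2 lay close below the arrays numbered 3. Cks2, a small subunit that binds the kinase, has 4 probe sets of its own, 3 of them with identical values. Its MG minus PBS difference was -0.09 on those 3 and 0.11 on the dimmer one, so its sign depends on the probe set.

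Genes of the anaphase-promoting complex pathway, which ends mitosis by marking cyclin B and securin for destruction, followed the arrays numbered 3. Cdc20, its activator, had values of 9.60, 9.34 and 10.18 in MG, against 9.36, 9.68 and 10.16 in PBS, with distances of 0.71 and 0.64. Ube2c, its ubiquitin-conjugating enzyme, and Cdca3, which promotes the degradation of the Cdk1 inhibitor Wee1, had distances between 0.44 and 0.75. The 17 other subunits and partners of the complex did not move as a block. Replicate 3 was the highest array of both groups in 7 of them (41.2%), against 19.6% of all genes and 26.8% of genes above the dim level. The median distance of the 17 was 0.07 in MG and 0.07 in PBS.

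Spindle genes had mean distances over both groups from 0.15 in Ckap2 to 0.74 in Tpx2. Tpx2, which activates Aurora A at the spindle, had values of 10.03, 10.15 and 10.81 in MG, against 9.90, 10.08 and 10.73 in PBS. Kif20b, a kinesin of late division, stood at 8.26, 8.44 and 8.91 in MG, against 8.01, 8.28 and 8.96 in PBS. In both genes the arrays numbered 3 lay well clear of the others, and the 2 groups spanned much the same values. Kif2c, a kinesin that takes microtubules apart, had values of 9.60, 9.27 and 9.76 in MG, against 9.13, 9.62 and 9.81 in PBS, with MG replicate 1 and PBS replicate 2 close below the arrays numbered 3. The other kinesins, Kif11 of the bipolar spindle and Kif23 of the central spindle, had distances of 0.20 and 0.47 in MG and of 0.61 and 0.62 in PBS. Microtubule-associated Hmmr, Dlgap5 and Tacc3 had distances between 0.45 and 0.60 in MG and between 0.57 and 0.70 in PBS.

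Ckap2 was the member that followed least. It encodes a microtubule protein of the spindle and poles, and had values of 10.43, 10.36 and 10.51 in MG, against 10.49, 10.44 and 10.65 in PBS. All 6 arrays lay within 0.29 of each other, the narrowest range of the 38, and PBS replicate 1 was here the second highest PBS value. Its close relative Ckap2l, first described in neural progenitors of mouse, had values of 8.14, 7.87 and 8.58 in MG, against 7.75, 7.97 and 8.37 in PBS. Nusap1, which bundles spindle microtubules, stood at 8.84, 8.93 and 9.16 in MG, against 8.40, 8.81 and 9.24 in PBS. For both, PBS replicate 1 was the lowest array and the arrays numbered 3 the highest.

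Chromosome genes had median distances of 0.27 in MG and 0.58 in PBS, and the cytokinesis genes Anln and Ect2 lay on either side of the members' median. Mki67, which encodes the Ki-67 coat protein of mitotic chromosomes and is a common marker of cycling cells, had values of 10.78, 10.86 and 11.11 in MG, against 10.46, 10.66 and 11.12 in PBS. Cdca2, which brings a phosphatase to chromosomes at exit, had values of 8.73, 8.65 and 8.94 in MG, against 8.46, 8.78 and 8.89 in PBS. Anln, which encodes the contractile ring protein anillin, had values of 8.99, 8.84 and 9.24 in MG, against 8.72, 9.02 and 9.23 in PBS. In these 3 genes the arrays numbered 3 were nearly level with each other and the groups overlapped. Smc4, a core subunit of condensin, had distances of 0.30 in MG and 0.71 in PBS. Ect2, which turns on the small GTPase RhoA to build the contractile ring, had distances of 0.59 in MG and 0.74 in PBS.

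The size of this distance differed between MG and PBS for many members. Replicate 3 lay further from its group's other arrays in PBS than in MG for 28 of 38 members, against 46.6% of all genes and 40.1% of genes above the dim level, with medians of 0.47 in MG and 0.60 in PBS. The larger distance was in MG for 4 of 6 mitotic kinases (Aurkb, Plk1, Aurka and Bub1b), for Cdk1, Ccna2, Cdc20, Birc5 and Ckap2l, and for Gtse1, a microtubule protein of the G2 and M phases. It was in PBS for all 4 chromosome genes, 10 of 12 spindle genes and 6 of 7 centromere and kinetochore genes. At the extremes, named after their values were seen, Gtse1 had a distance of 0.61 in MG and 0.20 in PBS, and Ndc80 had 0.25 in MG and 0.71 in PBS. Top2a, the topoisomerase that untangles sister chromatids, came next to Ndc80, with 0.19 in MG and 0.60 in PBS. The distance also depends on replicates 1 and 2. Relative to each gene's mean over the 6 arrays, the members averaged 0.34 on MG replicate 3 and 0.35 on PBS replicate 3. They averaged -0.10 and -0.15 on MG replicates 1 and 2, against -0.36 and -0.08 on PBS replicates 1 and 2. With 1 array numbered 3 in each group, the contrast between MG and PBS distances has no replicate and was not tested.

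**Figure D3:**
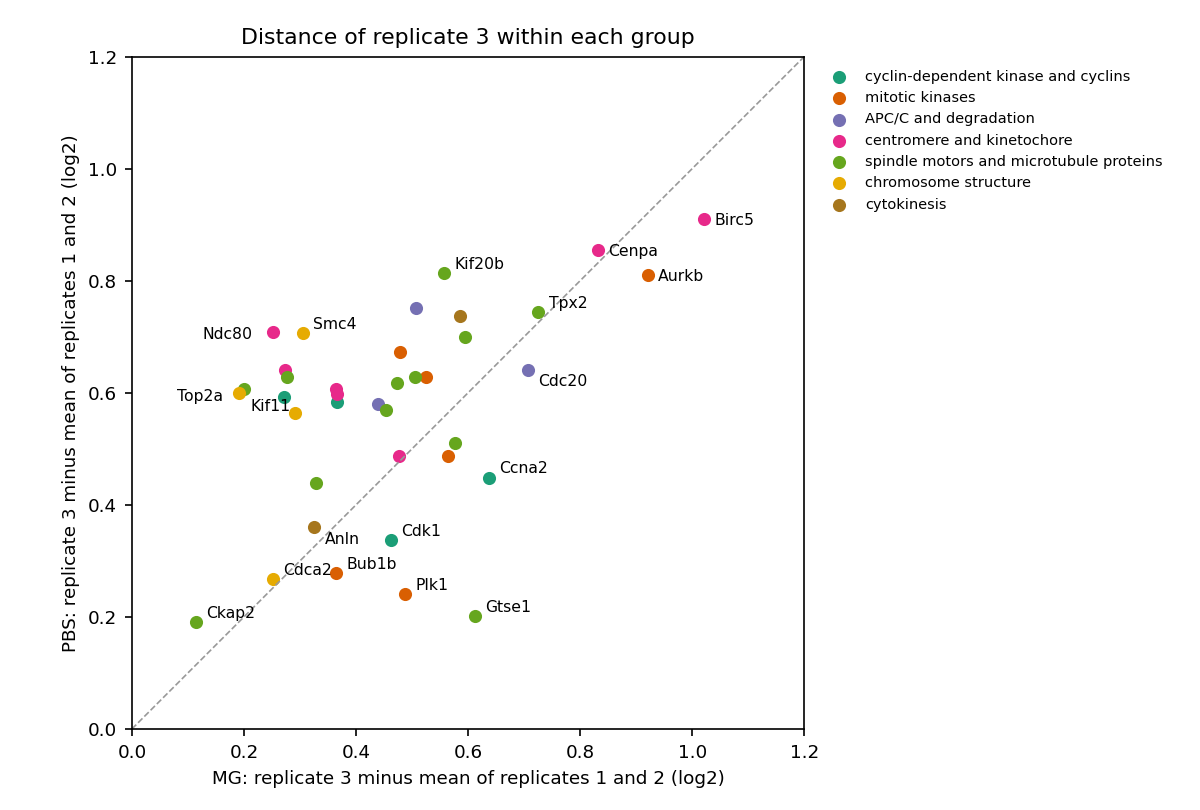
Distance of replicate 3 from the mean of replicates 1 and 2, in log2 units, in MG (x axis) and in PBS (y axis), 1 point per mitosis gene coloured by role, with the dashed line marking equal distances. All 38 points are above 0 on both axes, from Ckap2 at the lower left (0.11 and 0.19) to Birc5 at the upper right (1.02 and 0.91), and 28 lie on the PBS side of the line.

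The same arrays were high for most further mitosis genes and all measured replication genes. Of 53 further mitosis genes measured, replicate 3 was the highest array of both groups in 51 (96.2%). Over all genes this held in 19.6%, and among genes above the dim level in 26.8%. Median distances over the 53 were 0.51 in MG and 0.67 in PBS. Pttg1, which encodes securin, Cenpm and Nek2 had the largest distances of that list (means over both groups of 1.10, 1.10 and 0.90), and Sapcd2, Sgo2a and Psrc1 the smallest (0.15, 0.19 and 0.27). All 37 replication and S phase genes also had replicate 3 highest in both groups, with medians of 0.59 and 0.60. Pcna, the replication clamp, had distances of 0.25 in MG and 0.55 in PBS, and Mcm2, of the replicative helicase, 0.59 and 0.53.

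Of 23 regulators of cell cycle transcription, 17 (73.9%) had replicate 3 highest in both groups, and 6 did not. Over all genes the share was 19.6%, and among genes above the dim level 26.8%. Mybl2 had values of 8.19, 7.80 and 9.15 in MG, against 7.76, 8.07 and 8.92 in PBS, with distances of 1.16 and 1.0. Foxm1 had values of 8.41, 8.59 and 9.37 in MG, against 8.12, 8.46 and 9.22 in PBS, with distances of 0.87 and 0.93. Those of E2f1, an activator of S phase genes, were 0.73 in MG and 0.37 in PBS. For Mybl2, Foxm1 and E2f1 both arrays numbered 3 stood above the other 4. Cyclin-dependent kinase inhibitors were divided. Replicate 3 was the highest array of both groups in 3 of 7 (42.9%), against 26.8% of genes above the dim level. It was the lowest of both in 3 of the 7, against 3239 of those 13716 genes. Cdkn1a, which encodes the inhibitor p21, was the remaining one, at 11.52, 11.89 and 12.32 in MG, against 12.16, 11.91 and 11.98 in PBS. It was highest in replicate 3 only in MG.

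Astrocyte markers were mostly lowest on the arrays numbered 3. The mean log2 level of the 8 measured was 9.77, 9.64 and 8.99 in MG replicates 1, 2 and 3, against 9.38, 9.61 and 8.99 in PBS replicates 1, 2 and 3. In 6 of the 8, replicate 3 was the lowest array of both groups, and in none was it the highest of either. The 7 oligodendrocyte lineage markers had mean levels of 7.79, 7.41 and 7.18 in MG, against 7.36, 7.57 and 7.24 in PBS. The 8 endothelial and mural markers had mean levels of 6.16, 6.31 and 5.97 in MG, against 6.18, 6.25 and 5.79 in PBS. The means of both lists were lowest in replicate 3 of each group. That was not so in both groups for neuronal, ependymal and microglial markers. The 7 neuronal markers had mean levels of 7.31, 7.24 and 6.98 in MG, against 6.99, 7.16 and 7.07 in PBS. The 5 ependymal markers, 3 above the dim level, had 5.43, 5.49 and 5.47 in MG, against 5.26, 5.41 and 5.36 in PBS. The 7 microglial markers had 5.10, 5.07 and 4.95 in MG, against 5.13, 5.02 and 5.13 in PBS. Replicate 3 was the lowest array of both groups in 3 of the 7 oligodendrocyte lineage markers and 3 of the 8 endothelial and mural markers. The same held in 1 of the 7 neuronal, 0 of the 5 ependymal and 1 of the 7 microglial markers. Over all genes this held in 4699 of 22180, and among genes above the dim level in 3239 of 13716. Of the endothelial and mural markers, 6 were above the dim level in both groups. The mean of the 9 stem and progenitor markers was highest in replicate 3 of each group, at 10.61, 10.67 and 10.84 in MG, against 10.56, 10.60 and 10.75 in PBS. Single markers differed. Replicate 3 was the highest array of both groups in 4 of the 9, against 19.6% of all genes and 26.8% of genes above the dim level. Of the 6 arrays, Sox2 and Fabp7 were lowest on MG replicate 3 and Nes on PBS replicate 3. The part of cell composition in the mitosis values was not tested.

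**Figure D4:**
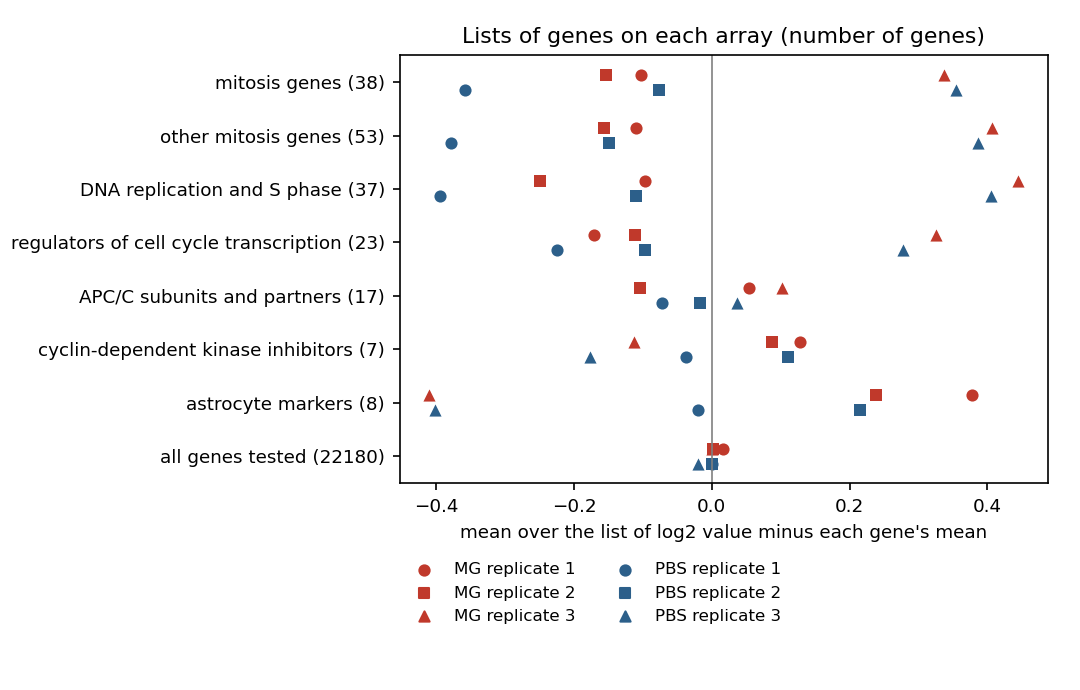
Mean over each list of the log2 value minus each gene's mean over the 6 arrays, with MG arrays in red above PBS arrays in blue, symbols for replicates 1, 2 and 3 as circles, squares and triangles, and the number of genes in brackets. Triangles lie at 0.34 (MG) and 0.35 (PBS) for the mitosis genes, at 0.10 and 0.04 for the subunits of the anaphase-promoting complex, and at -0.41 and -0.40 for astrocyte markers.

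No mitosis gene was called different between MG and PBS cultures. After Benjamini-Hochberg adjustment over 22180 genes, limma gave each of the 38 an adjusted p of 0.9998, and 0% of all genes passed. No member had an unadjusted p under 0.05, a mark that 3.21% of all genes reached, and 0.455% did so with at least a 1.5-fold difference. The smallest unadjusted p among members was 0.309. In no member did the 3 MG values all lie above or all below the PBS values, against 7.34% of all genes (4.03% with MG higher and 3.31% with MG lower). Differences ran from -0.14 in Kif23 to 0.24 in Ccnb2, and 27 of 38 were under 0.1 in size. The 95% confidence intervals reached a median of 0.50 to either side, a 1.42-fold difference, and all 38 held 0. The widest interval was that of Birc5, from -0.64 to 0.96.

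Ccnb2 came nearest, at 9.23 ± 0.21 in MG and 8.99 ± 0.42 in PBS (SD, n = 3 each), 0.24 apart on the log2 scale (standard error 0.22, interval from -0.27 to 0.74). Mki67 differed by 0.17 (10.92 ± 0.17 in MG and 10.75 ± 0.34 in PBS) and Ttk by 0.19 (9.25 ± 0.31 in MG and 9.06 ± 0.41 in PBS). Ckap2l differed by 0.17 (8.20 ± 0.36 in MG and 8.03 ± 0.31 in PBS) and Nusap1 by 0.16 (8.98 ± 0.17 in MG and 8.82 ± 0.42 in PBS). Ckap2, whose small spread gave the narrowest interval, from -0.37 to 0.18, had 10.43 ± 0.07 in MG and 10.53 ± 0.11 in PBS, a difference of -0.10. In all 38 members the range within MG exceeded the difference between the groups. The share over all genes is not given here.

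Means were higher in MG for 28 of 38 members (all 7 centromere and kinetochore genes, 8 of 12 spindle genes, 4 of 6 kinases, 3 of 4 cyclins and partners, 2 of 3 genes of degradation, 2 of 4 chromosome genes and both cytokinesis genes), against 53.8% of all genes. Among genes above the dim level 56.9% had higher means in MG. The median difference was 0.06 over the members, 0.01 over all genes and 0.02 over genes above the dim level. The count depended on single arrays. Without MG replicate 3 it was 5 of 38 with a median of -0.11, and without PBS replicate 1 it was also 5 of 38, with a median of -0.11. Without PBS replicate 3 it was 37 of 38 with a median of 0.22. Leaving out both arrays numbered 3 gave 30 of 38 with a median of 0.08. Of the 53 further mitosis genes 45 had higher means in MG (median 0.09), of 37 replication genes 31 (0.06), of 23 regulators 16 (0.04) and of 17 genes of the anaphase-promoting complex 11 (0.01). None of these genes passed after adjustment, and 1 of the 53 had an unadjusted p under 0.05.

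**Figure D5:**
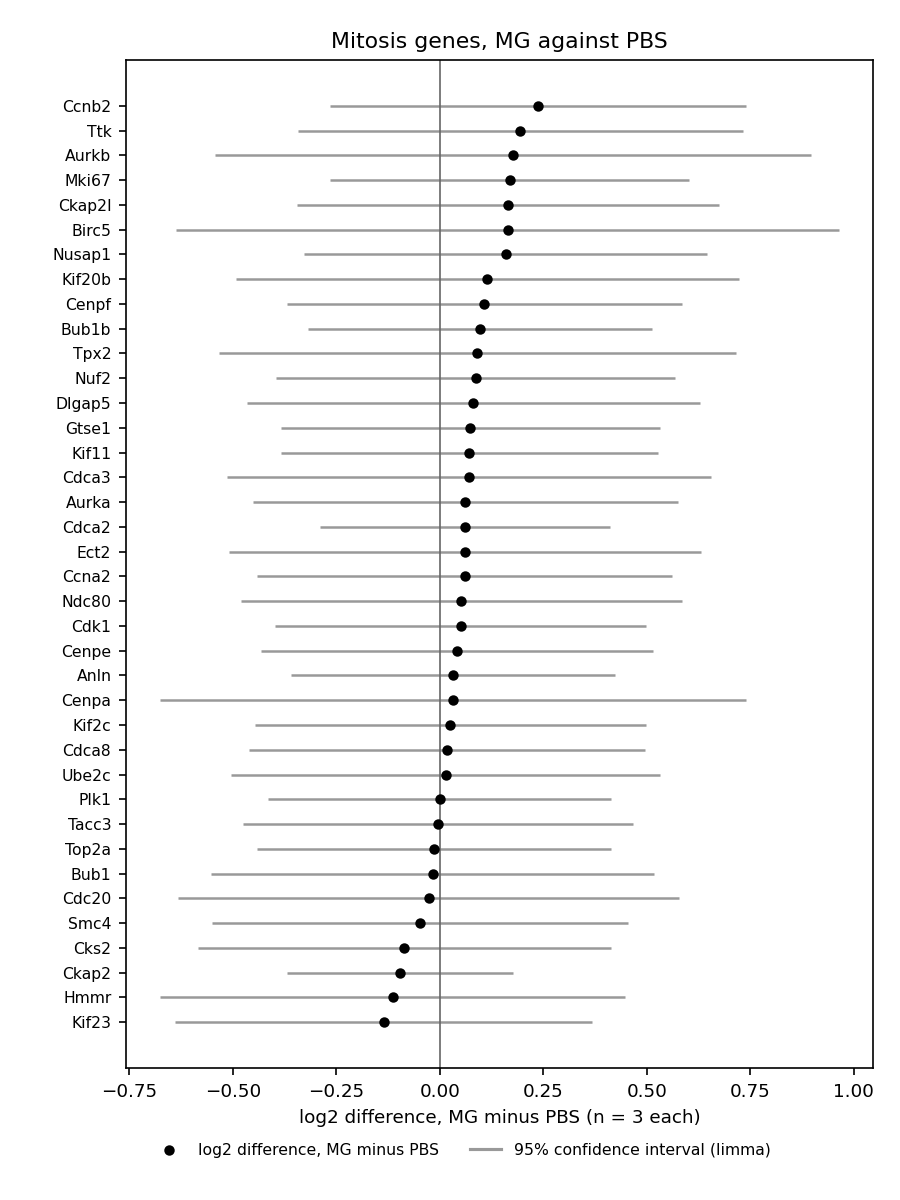
Log2 difference, MG minus PBS, of each measured mitosis gene (points, n = 3 each) with its 95% confidence interval from limma (bars), ordered by size. Points run from -0.14 in Kif23 to 0.24 in Ccnb2, and every bar crosses 0.

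The distance between arrays of one group was larger than the distance between the groups for each member. The mean distance of replicate 3, over both groups, exceeded the size of the MG minus PBS difference in all 38. It ran from 0.15 in Ckap2 and 0.26 in Cdca2 to 0.87 in Aurkb and 0.97 in Birc5. Members with and without a homology region match in the promoter had median distances of 0.48 (25 genes) and 0.48 (7 genes), with ranges of 0.15 to 0.84 and 0.41 to 0.97.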

How the data were processed

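Biotinylated cDNA from 6 total RNA samples was hybridised to Affymetrix Mouse Gene 2.0 ST arrays, 3 per group, per the labels. The values the authors deposited are log2 signals per probe set and array, a scale inferred from their range (0.73 to 13.81). Per the submitters' processing notes, the software was Partek 6.6. The authors' background correction, normalisation and genome build were not given in the sources used here. Of 41345 probe sets, 23521 were assigned to 1 gene by the platform annotation, 1814 to several, and 16010 are unnamed here.

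MG was compared with PBS in limma 3.58.1 under R 4.3.3, with a two-sided moderated test from lmFit and eBayes and without covariates, on 22180 genes, with Benjamini-Hochberg adjustment and a threshold of 0.05. No filter on dim genes was used. The steps were tested on simulated data. The number of arrays limits the precision. Distances of replicate 3 are its value minus the mean of replicates 1 and 2 of its group. Promoter letters come from RefSeq (GRCm38.p6), 1 window per gene, 34 of 40 members having one. Alternatives were another filter, normalisation, choice of probe sets, moderation or weighting, the replicate number as a block, and arrays left out. Figures were drawn with matplotlib 3.10.9.

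The members, lists, tests and alternatives were chosen with earlier results of these data known. Values were printed for the 6 members with the largest and the 6 with the smallest mean distance, the 6 with the smallest p, and the brightest and dimmest member; named non-members were Foxm1, Mybl2, E2f1, Pcna, Mcm2, Cdkn1a, 6 extremes of the further mitosis list and markers.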

Additional observations from a re-analysis of the deposited data

How the results depend on the processing

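No member passed limma's adjusted threshold, or an unadjusted p of 0.05, in any of 16 alternatives, and no gene of the series passed after adjustment in any. The count of 28 members with higher means in MG lay between 27 and 30 in the 10 alternatives other than leaving out 1 array. Few of the 10 could move it. The count was 27 with quantile normalisation, 28 with median centring, 30 with array weights and 30 without both arrays numbered 3. Averaged probe sets could change only Cks2. The rest altered only which genes were tested or the variance, so each member's mean difference, and their count of 28, was fixed beforehand. With 1 array left out the count lay between 5 and 37. The median difference lay between -0.11 and 0.22 with 1 array left out, and was below 0 without MG replicate 3 (-0.11) or PBS replicate 1 (-0.11). The cause was not tested. Nusap1 ran from -0.05 to 0.37 with 1 array left out (-0.047 without PBS replicate 1) and Ckap2l from -0.03 to 0.34 (-0.026 without MG replicate 3). The other 4 genes named for a small p kept their sign in every alternative that could change their mean difference. Replicate 3 was the highest array of both groups in 38 members with quantile normalisation or median centring. The same 38 with dim genes left out was fixed beforehand, since no member is dim. With averaged probe sets, again 38, only the values of Cks2 could change. Over all genes, an unadjusted p under 0.05 was reached by 712 genes, by 246 with dim genes left out (13716 tested), 1288 with all probe sets (41345 tested), 1163 with array weights, and 416 to 956 with 1 array left out. With at least a 1.5-fold difference the count was 101, against 28 with dim genes left out, 436 with all probe sets, 41 without moderation, 208 without both arrays numbered 3, and 115 to 239 with 1 array left out.

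With the replicate number as a block, no member passed. Each number has 1 MG and 1 PBS array, so the block cannot change a mean difference. The 28 of 38 members with higher means in MG (median 0.06) are therefore those of the main comparison. The pairing has no basis in the labels. Deviations of same-numbered arrays correlated at 0.22, 0.04 and 0.45 over 22180 genes for replicates 1, 2 and 3. Correlations between an MG array and PBS arrays of another number lay from -0.37 to 0.26, -0.21 to 0.23 and -0.34 to -0.24, respectively. Deviations were taken from each group's own mean, so within a group they cancel out in every gene. A positive value for same-numbered arrays thus pushes the values with other numbers down, and the latter are no separate comparison. What lies behind the value for replicate 3 was not tested.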
